A study of Mus musculus with 6 samples.

Results

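The genes described here are 10 amino acid transporters: *Slc7a11*, *Slc3a2*, *Slc7a5*, *Slc7a8*, *Slc7a7*, *Slc7a1*, *Slc1a4*, *Slc1a5*, *Slc38a1*, and *Slc38a2*. They were chosen by name, as all noncontrol spots of the arrays annotated with 1 of these gene names, which gave 14 probes of 55681 and 10 gene names of 34844. The cells were bone marrow–derived macrophages (BMDMs) of female wild-type C57BL/6 mice aged 6 to 8 weeks according to the labels, while the methods of the study give an older range. The bone marrow cells were grown for 7 days in medium conditioned by L929 cells, a fibroblast line that secretes the macrophage growth factor CSF1. There were 3 groups with 2 arrays each: untreated cells, cells stimulated for 4 h with lipopolysaccharide (LPS), a bacterial cell wall component sensed by TLR4, and cells given 10 μM HBX41,108 for 30 min before the same LPS stimulation (LPS+USP7i). HBX41,108 is a small molecule inhibitor of the deubiquitinase USP7. The series text gives LPS at 100 ng/ml, whereas the treatment label gives the same figure per microliter. Neither source says whether cells without inhibitor received its solvent, so the inhibitor and its solvent cannot be told apart. The comparisons ask which transporter genes changed with LPS and which differed when HBX41,108 was given before it. The arrays do not measure USP7 activity. No group received the inhibitor without LPS, so its effect by itself cannot be told from an effect on the LPS response.

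Amino acids cross the plasma membrane through transporters with overlapping substrates. The SLC7 light chains *Slc7a11*, *Slc7a5*, *Slc7a8*, and *Slc7a7* reach the cell surface bound to a common heavy chain encoded by *Slc3a2*. *Slc7a11* imports cystine in exchange for glutamate and so supplies cysteine for glutathione, *Slc7a5* and *Slc7a8* exchange large neutral amino acids, and *Slc7a7* exports cationic amino acids in exchange for neutral amino acids and sodium. *Slc7a1* imports arginine and other cationic amino acids, *Slc1a4* and *Slc1a5* exchange small neutral amino acids, with glutamine among the substrates of *Slc1a5*, and *Slc38a1* and *Slc38a2* import glutamine and alanine with sodium. In macrophages, cystine import supports the antioxidant response, and arginine import feeds nitric oxide synthesis. Several of these genes are known targets of ATF4, the transcription factor of the amino acid response, and *Slc7a11* is also a known target of NRF2, the transcription factor of the antioxidant response.

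Of the 59305 noncontrol spots of an array, 25002 to 27467 were well above background and 0 were saturated. All 14 probes of the transporters were well above background on all 6 arrays. All 6 arrays lay on 1 slide and were read in 1 scan. Each group occupied its own line of the slide in one direction, so treatment and this position cannot be told apart. All 7 macrophage markers, including *Csf1r*, *Adgre1*, and *Cd68*, were well above background on every array, with summed normalized signals of 508800 to 677000. Of these, *Fcgr1* was lower in LPS+USP7i, with a difference of -1.60 from LPS (SE 0.22, adjusted p = 0.0317) and -1.26 from untreated cells (SE 0.22, adjusted p = 0.0374), and *Itgam* was lower with LPS than in untreated cells, at -0.66 (SE 0.10, adjusted p = 0.0233). All 7 macrophage markers were below untreated cells in LPS+USP7i, with a median difference of -0.49, and 4 of them had an unadjusted p under 0.05. Of the gene names well above background on all arrays, 8719 of 15620 were below untreated cells in this comparison and 49.5% had such a p. Of the other cell types, 3 of 5 fibroblast markers, 2 of 4 T cell markers, and 2 of 3 erythroid markers were well above background on no array. Among the rest, the T cell marker *Cd3e* was well above background on all 6 arrays. The fibroblast marker *Dcn* was so on both untreated arrays, both LPS arrays, and 1 LPS+USP7i array. *Cd3d*, *Col1a2*, and *Klf1* were so on 1 untreated array each. The summed signal of the 6 neutrophil markers was 5222 and 6860 in untreated cells, 5849 and 11430 after LPS, and 6188 and 9528 after LPS+USP7i. The groups overlapped, and among arrays of the same number this sum was lowest in untreated cells. The single markers differed in direction. With LPS, 5 were above untreated cells and 1 below, and in LPS+USP7i 2 were above LPS and 4 below, with 0 called. The sum of the 4 dendritic cell markers was 45040 and 38050, 25330 and 24850, and 51410 and 34660 in the same order, and so was lowest with LPS. Its main part was *Siglech*, while *Flt3* and *Xcr1* were well above background on no array. *Zbtb46*, the fourth, was below that level on both untreated arrays and at least 5.65-fold higher with LPS (adjusted p = 0.00435) and at least 4.41-fold higher with LPS+USP7i (adjusted p = 0.00806). The sum of the 4 B cell markers was 1043 and 656, 1137 and 518, and 686 and 281 in the same order. It was lower on the replicate 2 array of each group, and lowest in LPS+USP7i among arrays of the same number. All 4 B cell markers had values below LPS in LPS+USP7i (median difference -0.80), and 0 were called. The part of these cells in any result was not tested.

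Values below are quantile-normalized log2 signals of single arrays, given for replicates 1 and 2 in that order, and differences are on the log2 scale with the standard error (SE) of the limma fit and an adjusted p value over all probes. A gene was called where this adjusted p was under 0.05. With 2 arrays per group, the smallest two-sided p of an exact permutation test is 0.333, whereas the limma fit estimates each probe's spread over the 3 groups with 3 residual and 1.05 prior degrees of freedom. The series text says that the samples of a group came from independent experiments. Bulk RNA from a culture does not tell fewer cells of a type from less RNA per cell. The levels of different probes are not compared, since probes differ in brightness for the same amount of RNA.

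With LPS, 5 of the 10 genes were higher than in untreated cells, namely *Slc7a11*, *Slc7a8*, *Slc7a7*, *Slc7a1*, and *Slc1a4*, and 1, *Slc38a2*, was lower. Among all 34843 gene names tested, 7.98% were called higher and 12.8% lower. Between LPS+USP7i and LPS, 3 were higher, *Slc7a11*, *Slc38a1*, and *Slc38a2*, and 1, *Slc7a7*, was lower, against a background of 5.51% higher and 4.28% lower. In LPS+USP7i compared with untreated cells, 4 genes were higher, *Slc7a11*, *Slc3a2*, *Slc7a1*, and *Slc38a1*, and 0 were lower, against 6.15% higher and 8.72% lower. All 10 genes were well above background on every array, and of the gene names measured so, 14.1%, 9.74%, and 10.8% were called higher and 23.9%, 7.44%, and 16.3% lower in the 3 comparisons. At an unadjusted p under 0.05, 6, 9, and 7 of the 10 genes differed, beside 58%, 43.8%, and 49.5% of these gene names. The median difference of the 10 genes was 0.67, 1.08, and 1.25 in the 3 comparisons, beside medians of 0.0016, 0.00080, and -0.0021 over all gene names and -0.18, 0.055, and -0.083 over those well above background on all arrays, as all 10 genes were. The comparisons share arrays, so their values for a gene are not independent of each other.

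**Figure D1:**
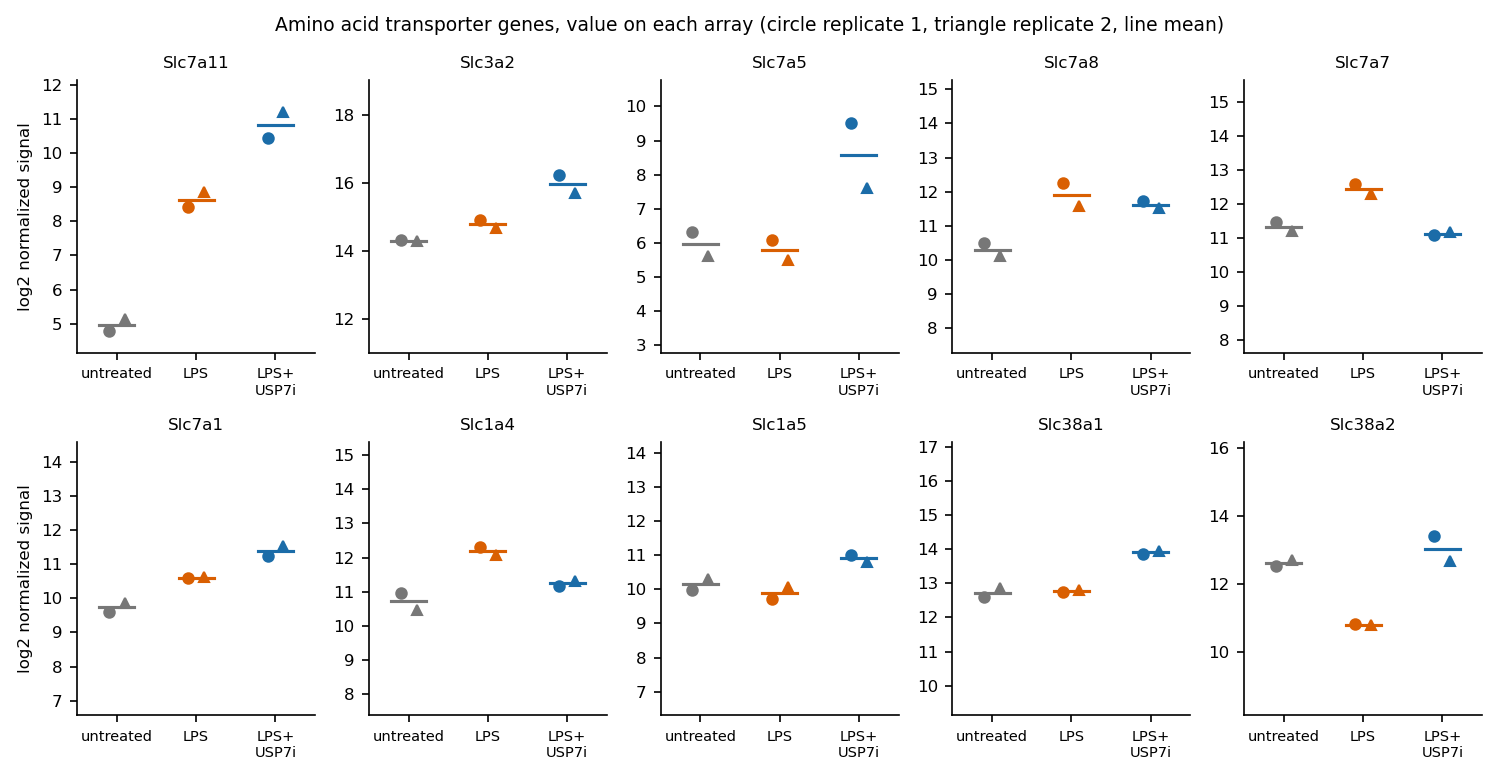
Quantile-normalized log2 signal of the brightest probe of each of the 10 transporter genes (vertical axis, spanning 8 log2 units in every panel) in untreated, LPS, and LPS+USP7i macrophages. Circles are replicate 1, triangles replicate 2, and lines the mean of the 2 arrays. *Slc7a11* stepped up from untreated (4.77 and 5.15) to LPS (8.43 and 8.85) to LPS+USP7i (10.45 and 11.22), while *Slc38a2* was lowest with LPS.

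*Slc7a11*, which encodes the cystine/glutamate exchanger xCT, had the widest range of group means of the 14 probes. Its values were 4.77 and 5.15 in untreated cells, 8.43 and 8.85 after LPS, and 10.45 and 11.22 after LPS+USP7i. The groups were in this order without overlap. LPS raised it by 3.68 (SE 0.34, adjusted p = 0.00774), a 12.8-fold increase, and by 2.21 to 3.88 over the 14 alternatives described below. It was higher by a further 2.20 in LPS+USP7i than in LPS (SE 0.34, adjusted p = 0.0407), or 4.59-fold. From untreated cells to LPS+USP7i the increase was 5.87 (SE 0.34, adjusted p = 0.00626), or 58.7-fold, and 4.22 to 6.32 over these alternatives. The calls against untreated cells held when any single array was left out, with adjusted p values up to 0.0493 and 0.0469, whereas the call between LPS+USP7i and LPS was lost without any single array, with adjusted p values of 0.0578 to 0.148 and differences of 1.81 to 2.59. This probe is located at chr3:50169700-50169759 (mm9, minus strand), near the 3′ end of the transcript, from base 8325.

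The promoter of *Slc7a11* is shown because this gene rose in both steps. The window runs from 250 bases before to 50 bases after the start site in RefSeq (GRCm38.p6, chr3:50443564-50443863, minus strand), printed 5′ to 3′ with matches to the amino acid response element core TGATGNAA in capitals.

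Slc7a11 promoter: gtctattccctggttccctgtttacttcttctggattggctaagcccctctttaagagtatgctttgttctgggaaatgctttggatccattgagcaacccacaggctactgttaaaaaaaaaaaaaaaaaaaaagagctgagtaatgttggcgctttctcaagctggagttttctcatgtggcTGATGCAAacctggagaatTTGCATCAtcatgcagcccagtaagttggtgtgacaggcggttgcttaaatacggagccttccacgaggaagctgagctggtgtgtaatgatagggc

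It holds 2 matches, at -66 on the plus strand and at -47 on the minus strand relative to the start site, and both read TGATGCAA on their own strand. On both strands, 3.97% of the 32851 promoter windows of RefSeq hold this core. The antioxidant response element core TGACNNNGC, held by 12.4% of the windows, and the consensus of κB sites, held by 8.46%, do not occur in these 300 bases.

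*Slc3a2*, the common heavy chain, was higher in LPS+USP7i than in untreated cells. Its values were 14.31 and 14.29 in untreated cells, 14.91 and 14.66 after LPS, and 16.21 and 15.68 after LPS+USP7i, in that order without overlap. The difference between LPS and untreated cells was 0.48 (SE 0.21, adjusted p = 0.255). LPS+USP7i exceeded LPS by 1.16 (SE 0.21), with an adjusted p of 0.0557, just outside the threshold, and 5 of the 14 alternatives called it. LPS+USP7i exceeded untreated cells by 1.65 (SE 0.21, adjusted p = 0.0202), a 3.13-fold increase. That call was lost without any untreated or LPS array, with adjusted p values of 0.0557 to 0.104, and in a fit of only these 2 groups (0.055). With scaling of each array to its 75th percentile, described below, the difference between LPS and untreated cells was 1.06 (adjusted p = 0.00668). Its probe is at chr19:8782189-8782248 (mm9, minus strand).

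*Slc7a5*, which encodes the large neutral amino acid transporter LAT1, was measured by 2 probes 25.9 kb apart, of which 1 was called higher with LPS, and the difference between them was not tested. The brighter probe, from base 533 of the transcript (chr8:124430996-124431055, mm9, minus strand), gave 6.31 and 5.61 in untreated cells, 6.09 and 5.50 after LPS, and 9.53 and 7.62 after LPS+USP7i. Untreated and LPS values overlapped, and both LPS+USP7i values lay above all others but far apart. The other probe, from base 3363 (chr8:124405136-124405195), gave 5.05 and 5.06 in untreated cells, 6.97 and 6.36 after LPS, and 8.56 and 7.97 after LPS+USP7i, in that order without overlap. By this probe LPS raised *Slc7a5* by 1.61 (SE 0.30, adjusted p = 0.0374), whereas by the brighter probe the difference was -0.16 (SE 0.75, adjusted p = 0.974), which turned to 0.13 without LPS replicate 2 and 0.19 without untreated replicate 1. The 95% interval of the brighter probe, -2.22 to 1.90, includes the value of the other. In LPS+USP7i compared with LPS, the differences were 2.78 (SE 0.75, adjusted p = 0.122) for the brighter probe and 1.60 (SE 0.30, adjusted p = 0.0593) for the other. Against untreated cells, the second probe was higher in LPS+USP7i by 3.21 (SE 0.30, adjusted p = 0.0114), or 9.26-fold, and the brighter one differed by 2.62 (SE 0.75, adjusted p = 0.12). Over the 14 alternatives these differences were 1.92 to 3.51 and 1.68 to 3.57. The second probe's difference between LPS and untreated cells was 0.80 to 1.91. The call with LPS was lost without any single array (adjusted p values of 0.0504 to 0.155), and the one against untreated cells without either untreated array (0.068 and 0.071). The gene is counted by the brighter probe, which had the higher mean over the 6 arrays. The other probe was higher on both LPS arrays and on LPS+USP7i replicate 2. Counted by that other probe, *Slc7a5* would be among the genes called higher with LPS and in LPS+USP7i against untreated cells. The brighter probe is printed as the sequence that was not called with LPS, 5′ to 3′, with no base in capitals because no motif was searched in it.

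Slc7a5 probe from base 533: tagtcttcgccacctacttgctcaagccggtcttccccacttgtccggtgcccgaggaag

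**Figure D2:**
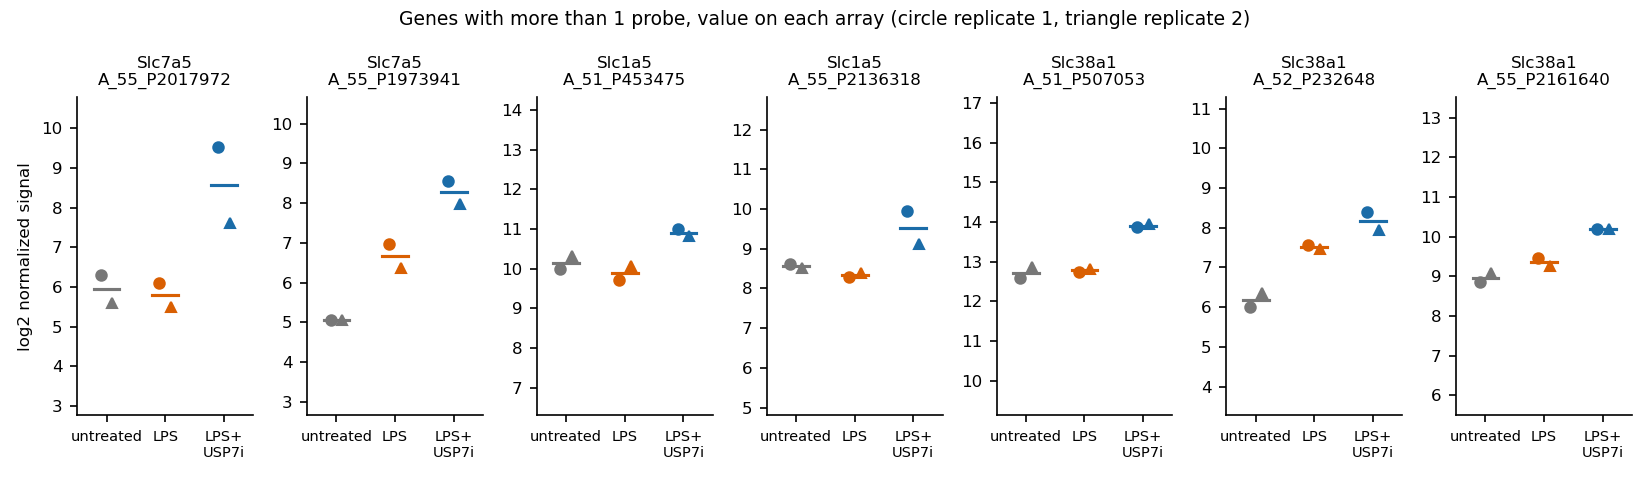
Quantile-normalized log2 signal on each array (vertical axis, 8 log2 units in every panel) for the 7 probes of *Slc7a5*, *Slc1a5*, and *Slc38a1* in the 3 groups. Circles are replicate 1, triangles replicate 2, and lines means. The brighter *Slc7a5* probe did not separate LPS from untreated cells, and the other did.

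*Slc7a8*, which encodes the large neutral amino acid transporter LAT2, was the only transporter printed in several copies, with 10 spots per array whose log2 values had an SD of at most 0.0755 within an array. Its values were 10.49 and 10.11 in untreated cells, 12.25 and 11.58 after LPS, and 11.71 and 11.51 after LPS+USP7i. Both stimulated groups lay above untreated cells and overlapped each other. LPS raised it by 1.61 (SE 0.29, adjusted p = 0.0324), or 3.06-fold. This call held without LPS replicate 2 (adjusted p = 0.0377) and was lost without any other single array (0.0751 to 0.14). LPS+USP7i differed from LPS by -0.30 (SE 0.29, adjusted p = 0.638, 95% interval -1.09 to 0.49), and the sign turned without LPS replicate 1 (0.032). LPS+USP7i exceeded untreated cells by 1.31 (SE 0.29, adjusted p = 0.0652). Of the 14 alternatives described below, 6 called this difference, among them the one with the replicate number as a block. On the genome the probe is at chr14:55341137-55341196 (mm9, minus strand).

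*Slc7a7* and *Slc1a4* were higher with LPS and had lower values when the inhibitor was present. For *Slc7a7*, the light chain that exports cationic amino acids, the values were 11.48 and 11.20 in untreated cells, 12.58 and 12.31 after LPS, and 11.09 and 11.18 after LPS+USP7i. The LPS arrays were the highest, and the LPS+USP7i arrays were both just below the untreated ones. LPS raised *Slc7a7* by 1.11 (SE 0.15, adjusted p = 0.0175), or 2.15-fold, a call lost without LPS replicate 1 (0.95, adjusted p = 0.0693) or untreated replicate 2 (0.98, adjusted p = 0.0745). In LPS+USP7i it was lower than in LPS by 2.48-fold, a difference of -1.31 (SE 0.15, adjusted p = 0.0247), lost without any single array (0.0597 to 0.0935). Against untreated cells LPS+USP7i differed by -0.21 (SE 0.15, adjusted p = 0.541). The probe lies at chr14:54989166-54989225 (mm9, minus strand).

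*Slc1a4*, which encodes the neutral amino acid exchanger ASCT1, had values of 10.97 and 10.46 in untreated cells, 12.30 and 12.08 after LPS, and 11.17 and 11.31 after LPS+USP7i. The LPS arrays were again the highest, with LPS+USP7i between them and untreated cells. LPS raised *Slc1a4* by 1.47 (SE 0.21, adjusted p = 0.0191), or 2.77-fold. That call held without untreated replicate 1 (adjusted p = 0.0326) and was lost without any other single array (0.0506 to 0.0922). LPS+USP7i differed from LPS by -0.95 (SE 0.21, adjusted p = 0.0805, 95% interval -1.52 to -0.37) and from untreated cells by 0.52 (SE 0.21, adjusted p = 0.236). The probe lies at chr11:20202615-20202674 (mm9, minus strand).

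These 2 genes also shared matches to TGATGNAA near a start site. Their windows are shown because the genes had the same order of groups in LPS and LPS+USP7i, with capitals marking this core and, for *Slc7a7*, the κB consensus. The *Slc7a7* window, the second of 5 in RefSeq for this gene, is chr14:54417653-54417952 and the *Slc1a4* window chr11:20332664-20332963, both GRCm38.p6 and minus strand.

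Slc7a7 promoter, second window: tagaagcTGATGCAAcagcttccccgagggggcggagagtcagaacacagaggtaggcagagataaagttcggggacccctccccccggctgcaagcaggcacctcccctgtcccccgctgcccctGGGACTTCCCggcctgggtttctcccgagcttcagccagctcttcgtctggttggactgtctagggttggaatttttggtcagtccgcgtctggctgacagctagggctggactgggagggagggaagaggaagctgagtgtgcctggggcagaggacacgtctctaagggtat

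Slc1a4 promoter: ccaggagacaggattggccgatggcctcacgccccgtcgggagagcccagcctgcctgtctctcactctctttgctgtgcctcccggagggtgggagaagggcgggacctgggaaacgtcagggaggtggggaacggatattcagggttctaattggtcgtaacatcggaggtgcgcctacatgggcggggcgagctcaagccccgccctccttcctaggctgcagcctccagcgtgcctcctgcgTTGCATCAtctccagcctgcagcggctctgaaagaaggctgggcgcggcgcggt

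In the *Slc7a7* window the core lies at -243 and the κB match at -124, which reads GGGACTTCCC on the plus strand and also fits the consensus on the minus strand. The first *Slc7a7* window overlaps this one and holds the same TGATGCAA at -1, plus TGATGAAA at -141. The third holds the same κB match at -147. In *Slc1a4* the core lies at -4 on the minus strand. RefSeq windows were matched for 7 of the 10 transporters, 12 windows in all, and 3 genes, *Slc7a11*, *Slc7a7*, and *Slc1a4*, held the TGATGNAA core. The antioxidant core was found for 2, *Slc7a1* (TGACAGCGC at -11, minus strand) and *Slc38a2* (TGACGCGGC at -27, plus strand). No match to one motif overlapped a match to another in these windows. By window, the first core was held by 4 of the 12, and the antioxidant core and the κB consensus by 2 each. The shares over RefSeq given above are per window, so they are no background for counts of genes, and some *Slc7a7* windows overlap. A match describes the letters of the window and is no measurement of binding.

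*Slc7a1*, which encodes the arginine transporter CAT1, was higher with LPS and highest with LPS+USP7i. Its values were 9.61 and 9.87 in untreated cells, 10.59 and 10.62 after LPS, and 11.25 and 11.53 after LPS+USP7i, in that order without overlap. LPS raised it by 0.86 (SE 0.15, adjusted p = 0.0294), or 1.82-fold. The further difference of 0.78 in LPS+USP7i had an adjusted p of 0.0583 (SE 0.15). From untreated cells to LPS+USP7i the increase was 1.65 (SE 0.15, adjusted p = 0.0106), or 3.13-fold. The LPS call was lost in the deposited table of log2 values (0.83, adjusted p = 0.0548) and without any untreated or LPS array (0.0713 to 0.117), and the last one without untreated replicate 1 or 2 (0.0524 and 0.0507). The probe lies at chr5:149139957-149140016 (mm9, minus strand).

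*Slc1a5*, which encodes the glutamine exchanger ASCT2, was not called in any comparison by either of its probes in the fit used for the values given here. The brighter probe (chr7:17383359-17383418, mm9, plus strand) gave 10.00 and 10.31 in untreated cells, 9.71 and 10.06 after LPS, and 11.01 and 10.81 after LPS+USP7i. LPS and untreated values overlapped, and LPS+USP7i values were the highest. LPS differed from untreated cells by -0.27 (SE 0.19, adjusted p = 0.493, 95% interval -0.78 to 0.25). LPS+USP7i differed from LPS by 1.03 (SE 0.19, adjusted p = 0.0554, 95% interval 0.51 to 1.54) and from untreated cells by 0.76 (SE 0.19, adjusted p = 0.0861). The other probe (chr7:17383027-17383086) gave 8.60 and 8.52, 8.29 and 8.39, and 9.94 and 9.12 in the same order, so its LPS+USP7i arrays were also the highest. Its difference between LPS+USP7i and LPS was 1.19 (SE 0.30, adjusted p = 0.104). Of the 14 alternatives, 4 called the brighter probe higher in LPS+USP7i than in LPS (adjusted p down to 0.00494) and 3 than in untreated cells (down to 0.015), and for the other probe 3 and 4 did so (down to 0.0244 and 0.0263).

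*Slc38a1*, which encodes the glutamine transporter SNAT1, was measured by 3 probes in the same transcript, and all 3 were higher in LPS+USP7i than in untreated cells. The brightest (chr15:96406793-96406852, mm9, minus strand) gave 12.59 and 12.87 in untreated cells, 12.75 and 12.81 after LPS, and 13.87 and 13.95 after LPS+USP7i. The LPS values lay between those of the untreated arrays, and both LPS+USP7i values were about 1 unit above. It differed by 0.053 (SE 0.12, adjusted p = 0.894) between LPS and untreated cells, by 1.13 (SE 0.12, adjusted p = 0.0214) between LPS+USP7i and LPS, and by 1.18 (SE 0.12, adjusted p = 0.0125) between LPS+USP7i and untreated cells. The second probe (chr15:96402753-96402812) gave 8.85 and 9.08, 9.45 and 9.26, and 10.20 and 10.20, and its differences were 0.39 (SE 0.12, adjusted p = 0.121), 0.85 (SE 0.12, adjusted p = 0.0344), and 1.24 (SE 0.12, adjusted p = 0.0119) in the same order. The third and dimmest (chr15:96405187-96405246) gave 5.99 and 6.35, 7.56 and 7.46, and 8.39 and 7.95. For this probe the larger step was with LPS, at 1.34 (SE 0.21, adjusted p = 0.0246), and the step to LPS+USP7i was 0.66 (SE 0.21, adjusted p = 0.17). The total was 2.0 (SE 0.21, adjusted p = 0.0139), and 1.24 to 2.22 over the 14 alternatives. The difference between probes was not tested. The LPS+USP7i call of the brightest probe was lost without any single array when compared with LPS (0.0555 to 0.089), and without LPS+USP7i replicate 2 when compared with untreated cells (0.0535). For the second probe the call against LPS was lost without any single array (0.0721 to 0.12) or with the replicate number as a block (0.0688), and the one against untreated cells without untreated replicate 1 or either LPS+USP7i array (0.0509 to 0.0529). For the third, the LPS call was lost without any LPS or untreated array (0.0699 to 0.113) or with that block (0.0529), and the total without either untreated array (0.0593 and 0.0673). The second probe's call against LPS was also lost in a fit of LPS+USP7i and LPS alone and in the deposited table of log2 values. The difference between LPS and untreated cells by the brightest probe turned to -0.087 without untreated replicate 1.

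*Slc38a2*, which encodes SNAT2, the transporter known for its induction by amino acid shortage, was the only member called lower with LPS. Its values were 12.54 and 12.71 in untreated cells, 10.83 and 10.79 after LPS, and 13.40 and 12.69 after LPS+USP7i. The LPS arrays lay far below the rest, and the LPS+USP7i arrays overlapped the untreated ones. LPS lowered it by 3.50-fold, a difference of -1.81 (SE 0.26, adjusted p = 0.0201). In LPS+USP7i it was 4.68-fold higher than in LPS, a difference of 2.23 (SE 0.26, adjusted p = 0.0256). LPS+USP7i differed from untreated cells by 0.42 (SE 0.26, adjusted p = 0.484, 95% interval -0.30 to 1.14). Both calls held without either LPS+USP7i array and were lost without any LPS or untreated array, with adjusted p values of 0.0858 to 0.104 and 0.0806 to 0.105. With the replicate number as a block, the difference between LPS+USP7i and LPS had an adjusted p of 0.0507. The probe lies at chr15:96518491-96518550 (mm9, minus strand).

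**Figure D3:**
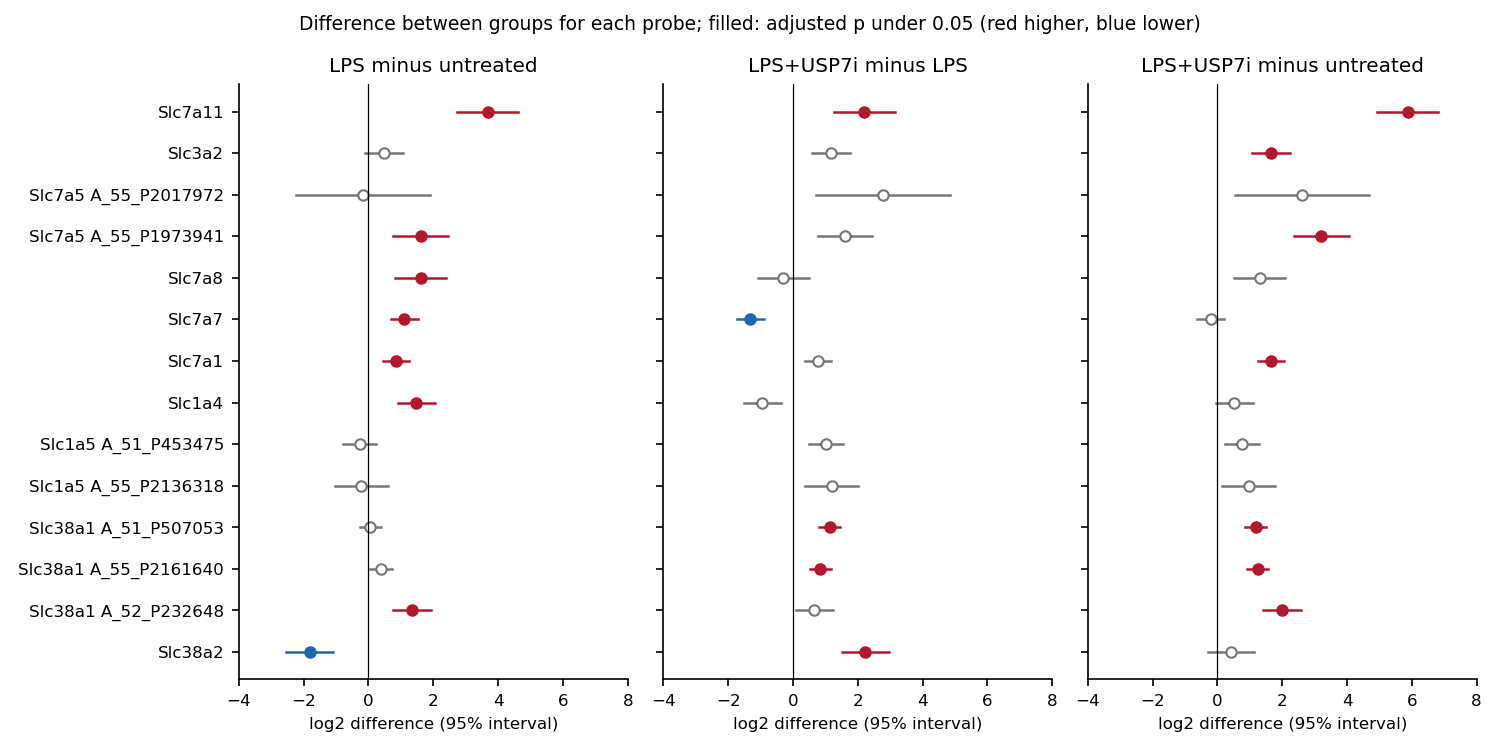
Difference of group means on the log2 scale (horizontal axis, points) with its 95% interval (lines) for each of the 14 probes in the 3 comparisons. Filled red points were called higher and filled blue points lower at an adjusted p under 0.05, and open gray points were not called. *Slc7a11* has the largest differences against untreated cells, 3.68 and 5.87, and *Slc38a2* goes from -1.81 with LPS to 2.23 between LPS+USP7i and LPS.

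The calls between LPS+USP7i and LPS rested on the spread shared by all 3 groups. Fits of only these 2 groups called 0 of the 10 genes and 0 of all gene names, with a smallest adjusted p of 0.0561, although 9 of the 10 genes had an unadjusted p under 0.05 in both fits, which in the fit of 3 groups 9056 of 34843 gene names also had, or 43.8% of those well above background on all arrays. The same held in limma fits without untreated replicate 1 or 2, with smallest adjusted p values of 0.0551 and 0.0554, 0 genes called and 9 of the 10 at an unadjusted p under 0.05. By contrast, 7 of the 10 genes were called higher and 2 lower when probes that were dim in every group were left out before adjustment, while the calls over all gene names rose from 1920 higher and 1490 lower to 2773 and 2366. Scaling each array to its 75th percentile shifted the median of all gene names by 0.40 between LPS and untreated cells and by 0.44 between LPS+USP7i and untreated cells, and turned the calls from 2779 higher and 4446 lower to 12184 and 4051 in the first and from 2144 and 3040 to 12216 and 3363 in the second. Over gene names well above background on all arrays the medians were 0.083 and 0.10 under this scaling and -0.18 and -0.083 under quantile normalization. No member changed its direction with this scaling.

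The pattern of *Slc7a11* was set against that of all other gene names measured well above background on the 6 arrays, after each was centered on its own mean. Of 15619 candidates, the nearest was *D16Ertd472e* at a root mean square distance of 0.43 log2 units, followed by *Ankrd33b* at 0.48 and *Phlda1* at 0.54. *D16Ertd472e* had values of 6.05 and 5.91, 9.99 and 9.73, and 10.79 and 11.70 in untreated, LPS, and LPS+USP7i cells. *Ankrd33b* had values of 6.78 and 7.24, 10.05 and 10.11, and 11.65 and 11.92. *Phlda1*, a pleckstrin homology-like protein, had 8.05 and 8.47, 10.85 and 11.04, and 13.21 and 13.08. The genes were picked for this likeness, so their order of groups is a description.

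A further 44 amino acid transporters were read in the same fit, of which 22 were well above background on at least 1 array. With LPS, 4 were called higher and 7 lower, in LPS+USP7i compared with LPS 3 and 1, and in LPS+USP7i compared with untreated cells 3 and 2. Over all gene names the shares called were 7.98% and 12.8%, 5.51% and 4.28%, and 6.15% and 8.72%. Over those well above background on all arrays they were 14.1% and 23.9%, 9.74% and 7.44%, and 10.8% and 16.3%. All 7 transporters called lower with LPS were well above background on all arrays. Of the 4 called higher, *Slc7a2* and *Slc1a2* were not. The median differences of the list were -0.016, 0.013, and 0.0065, and -0.57, 0.41, and -0.054 over the 16 that were well above background on all arrays. *Slc7a2*, the cationic amino acid transporter CAT2, had the largest change, with values of 3.92 and 4.81 in untreated cells, 9.52 and 9.50 after LPS, and 7.19 and 7.84 after LPS+USP7i. It rose by 5.15 with LPS (SE 0.39, adjusted p = 0.00562), although only 1 of the untreated arrays measured it well above background. Its difference between LPS+USP7i and LPS was -2.0 (SE 0.39, adjusted p = 0.0648), whereas that of *Slc7a1*, the other arginine transporter above, was 0.78, and this contrast between genes was not tested.

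Further genes of this list, named by the size of their differences, were *Ctns*, *Slc66a1*, *Slc36a1*, and *Slc38a9*. *Ctns*, the cystine exporter of lysosomes, had values of 11.19 and 11.07 in untreated cells, 9.25 and 9.03 after LPS, and 11.40 and 10.81 after LPS+USP7i. It was lower with LPS by a difference of -1.99 (SE 0.23, adjusted p = 0.0122) and higher in LPS+USP7i than in LPS by 1.96 (SE 0.23, adjusted p = 0.0254). *Slc66a1*, a lysosomal exporter of cationic amino acids listed on the array as *Pqlc2*, had values of 12.47 and 12.37, 10.44 and 10.53, and 12.20 and 11.98. Its differences in these comparisons were -1.94 (SE 0.11, adjusted p = 0.00369) and 1.61 (SE 0.11, adjusted p = 0.0126). Both were lowest with LPS, as *Slc38a2* was. *Slc36a1*, a proton-coupled transporter, was higher in LPS+USP7i than in LPS by 1.27 (SE 0.18, adjusted p = 0.0339) and than in untreated cells by 1.77 (SE 0.18, adjusted p = 0.0128). *Slc38a9*, the lysosomal arginine sensor upstream of mTORC1, was lower in LPS+USP7i than in untreated cells by a difference of -1.57 (SE 0.11, adjusted p = 0.0079). *Slc1a2* was also called in the first and second comparisons, but all 6 arrays measured it below that level.

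Of 26 genes listed as ATF4 and its targets, 3 were higher and 4 lower with LPS, 8 higher and 2 lower in LPS+USP7i compared with LPS, and 7 higher and 1 lower in LPS+USP7i compared with untreated cells. The shares of gene names well above background called in the same order were 14.1% and 23.9%, 9.74% and 7.44%, and 10.8% and 16.3%. At an unadjusted p under 0.05, 13, 13, and 14 of the 26 genes, 20 of them well above background on all arrays, differed, beside 58%, 43.8%, and 49.5% of those gene names. *Atf4* itself was lower with LPS by a difference of -0.75 (SE 0.15, adjusted p = 0.0465) and higher in LPS+USP7i than in LPS by 1.26 (SE 0.15, adjusted p = 0.0269). *Trib3*, a pseudokinase, had values of 9.65 and 9.80 in untreated cells, 7.38 and 7.93 after LPS, and 10.46 and 10.31 after LPS+USP7i. *Trib3* was 2.73 higher in LPS+USP7i than in LPS (SE 0.22, adjusted p = 0.0151), and *Chac1*, which degrades glutathione, was 2.89 higher (SE 0.27, adjusted p = 0.0187), with 1 of the LPS arrays well above background. *Nupr1* went the other way. It was 4.26 higher with LPS than in untreated cells (SE 0.31, adjusted p = 0.00518), with a difference of -2.14 (SE 0.31, adjusted p = 0.0355) between LPS+USP7i and LPS. *Cth*, which makes cysteine from cystathionine, was below that level on both untreated arrays and was at least 10.6-fold higher with LPS (adjusted p = 0.00737) and at least 6.06-fold higher with LPS+USP7i (adjusted p = 0.0169). Such a bound sets the measured level against the lowest signal well above background. *Ppp1r15a*, a phosphatase subunit, was higher than in untreated cells by 2.21 with LPS (SE 0.37, adjusted p = 0.0278) and 2.69 with LPS+USP7i (SE 0.37, adjusted p = 0.0228). The median difference of the list was -0.083, 0.47, and 0.48 in the 3 comparisons.

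Of 23 genes listed as NRF2 targets, 3 were higher and 4 lower with LPS, 11 higher and 0 lower in LPS+USP7i compared with LPS, and 10 higher and 0 lower in LPS+USP7i compared with untreated cells. All 23 were well above background on every array, so the same shares are their background. At an unadjusted p under 0.05, 11, 19, and 18 of the 23 genes differed, beside 58%, 43.8%, and 49.5%. The medians were -0.25, 1.26, and 1.16. *Hmox1*, which degrades heme, had values of 14.67 and 14.24 in untreated cells, 13.85 and 13.30 after LPS, and 18.06 and 18.15 after LPS+USP7i. It was higher in LPS+USP7i than in LPS by 4.53 (SE 0.25, adjusted p = 0.0113). *Srxn1*, which restores oxidized peroxiredoxins, was 3.97 higher (SE 0.29, adjusted p = 0.0144), and *Osgin1* was 4.12 higher (SE 0.43, adjusted p = 0.0215) after a difference of -2.67 with LPS (SE 0.43, adjusted p = 0.0258). *Gclm*, the modifier subunit of the enzyme that starts glutathione synthesis, was higher in LPS+USP7i than in untreated cells by 3.33 (SE 0.47, adjusted p = 0.025). *Txnrd1*, a thioredoxin reductase, and *Abcc1*, an exporter of glutathione conjugates, were higher with LPS by 1.28 (SE 0.08, adjusted p = 0.00438) and 0.78 (SE 0.16, adjusted p = 0.0459). *Txnrd1* was also higher in LPS+USP7i than in LPS, by 1.91 (SE 0.08, adjusted p = 0.0104), and so was called higher in both steps, as *Slc7a11* was. *Txn1*, thioredoxin, was called in both as well, at 0.44 (SE 0.07, adjusted p = 0.029) and 0.46 (SE 0.07, adjusted p = 0.0449), and was named after its values were seen. No list was tested as a set.

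**Figure D4:**
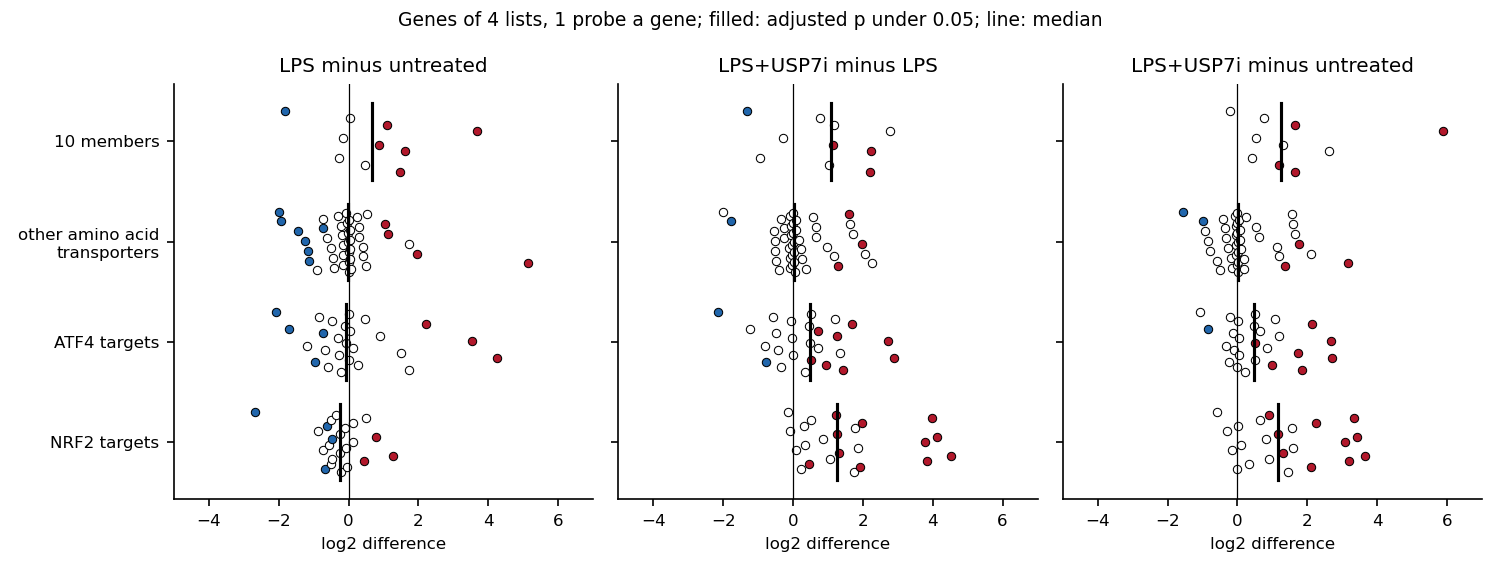
Difference of group means on the log2 scale (horizontal axis) for the 10 transporter genes, the other 44 amino acid transporters, 26 ATF4 genes, and 23 NRF2 targets, with 1 probe for each gene. Filled points were called at an adjusted p under 0.05 (red higher, blue lower) and black lines are medians. The median of the 10 transporters is 0.67, 1.08, and 1.25 in the 3 comparisons. The medians of the other transporters, -0.016, 0.013, and 0.0065, include the 22 genes too dim on every array.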

How the data were processed

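Total RNA was labeled with Cy3 and hybridized to 1-color Agilent mouse arrays, 6 in all. The authors deposited each array's scanner output, made with Feature Extraction 10.7.3.1, holding background-subtracted spot intensity values, plus log2 values that the authors normalized with limma (quantile normalization per the methods; its background correction is not given in the sources used here). Here the processed signal was put on the log2 scale and quantile-normalized (R 4.3.3, limma 3.58.1) without a background offset. Outlier-flagged spots were set to missing before averaging over the spots of each probe. The 3 groups were fitted together with lmFit and eBayes (3 residual and 1.05 prior degrees of freedom), with Benjamini-Hochberg adjustment of p-values across 55680 probes. A gene was counted by its probe with the highest mean. From each further list, up to 3 genes per comparison with the largest difference were named, among called genes without overlap and well above background on both arrays of a group. *Atf4*, as the factor itself, was named outside this rule. The code was tested on simulated data. Array number limits precision. The members and lists were chosen with earlier results of these data known.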

Additional observations from a re-analysis of the deposited data

How the results depend on the processing

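Each difference of the 14 probes was recomputed in 14 alternatives, 588 values in all, of which 457 kept direction and call, 86 lost a call, 39 gained one, and 6 changed sign. The sign changes concerned small differences. For the brighter *Slc7a5* probe between LPS and untreated cells the value was 0.026 with normexp background correction and 0.11 in the deposited table, and -0.51 to 0.19 without 1 array. For the brightest *Slc38a1* probe it was -0.087 to 0.20 without 1 array, and for *Slc7a8* between LPS+USP7i and LPS it was -0.63 to 0.032.

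The number of transporters called higher was 5 with LPS, 3 in LPS+USP7i against LPS, and 4 in LPS+USP7i against untreated cells. Over all gene names these numbers were 2779, 1920, and 2144. Fits of the 2 groups compared gave 3 for LPS, without *Slc7a8* and *Slc1a4*, 0 for LPS+USP7i against LPS, and 3 against untreated cells, without *Slc3a2*. Over all gene names such fits gave 2585, 0, and 1347. The deposited table gave 4, 4, and 6, without *Slc7a1* in the first, beside 2258, 1345, and 1722 of all gene names. For LPS+USP7i against LPS, 7 were higher with dim probes left out, 7 with the mean over probes, 6 with normexp, and 6 with a trended prior. In the same order, 2773, 2313, 2879, and 2008 of all gene names tested were higher, so the calls also rose outside the transporters. Against untreated cells, 7 were higher with 75th percentile scaling, dim probes left out, the mean over probes, or normexp. These settings called 12216, 2818, 2483, and 2745 of all gene names higher. In LPS+USP7i against LPS, 2 were lower with dim probes left out, the mean over probes, or normexp, and 0 in fits of 2 groups. Over all gene names 2366, 1927, 2377, and 0 were lower, beside 1490 in the fit used for the values above. Leaving out 1 array gave 1 to 3, 0 to 2, and 2 to 4 higher in the 3 comparisons, and 0 to 1, 0 to 0, and 0 to 0 lower. A group left with 1 array was assumed to vary like the others.

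The labels give the same replicate numbers in each group but do not say what a number marks, and it coincided with a line of the slide. Deviations of arrays with the same number correlated at 0.468, 0.398, and 0.422 between pairs of groups. With the replicate number as a block, 5, 2, and 5 members were higher, beside 2936, 1426, and 2213 of all gene names. Calls lost were *Slc38a2* in LPS+USP7i against LPS (adjusted p = 0.0507), the second *Slc38a1* probe there (0.0688), and the third *Slc38a1* probe with LPS (0.0529), and *Slc7a8* against untreated cells was gained (0.0317). It changed no other call.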

Other observations

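The remaining transporters called among the 44 others were named after their values were seen. *Slc16a10*, an aromatic amino acid transporter, was higher with LPS by 1.12 (SE 0.16, adjusted p = 0.0198) and with LPS+USP7i by 1.35 (SE 0.16, adjusted p = 0.0174), both relative to untreated cells. *Slc38a6* was higher with LPS by 1.04 (SE 0.15, adjusted p = 0.0199). *Slc6a6*, the taurine transporter, was lower with LPS, with a difference of -0.73 (SE 0.11, adjusted p = 0.0209), and with LPS+USP7i, at -0.98 (SE 0.11, adjusted p = 0.0149). With LPS alone, *Slc43a2*, a large neutral amino acid transporter, differed by -1.24 (SE 0.19, adjusted p = 0.0237), *Slc7a6*, a light chain partner of *Slc3a2*, by -1.17 (SE 0.22, adjusted p = 0.0395), and *Slc36a4* by -1.14 (SE 0.24, adjusted p = 0.0472). *Slc38a9* was also lower with LPS, at -1.46 (SE 0.11, adjusted p = 0.00587).

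A further ATF4 target and NRF2 target were named in the same way. *Asns*, which makes asparagine, had values of 10.66 and 10.80 in untreated cells, 10.68 and 10.82 after LPS, and 12.31 and 12.58 after LPS+USP7i. It was 1.70 higher in LPS+USP7i than in LPS (SE 0.13, adjusted p = 0.0149). *Gclc*, the catalytic subunit beside *Gclm*, had values of 10.28 and 10.06, 9.58 and 9.30, and 13.12 and 13.40 in the same groups, and was 3.82 higher in LPS+USP7i than in LPS (SE 0.17, adjusted p = 0.0104).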
